A study of Homo sapiens with 2 samples.

Results

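The genes described here are the expressed solute carriers of P493-6 cells other than the mitochondrial SLC25A family. P493-6 is an established human line, labelled B-cell lymphoma, whose c-Myc transgene is shut off by tetracycline. Polyadenylated RNA was sequenced from 1 high c-Myc sample, taken 24 h after the transgene was released from repression, and 1 low c-Myc sample, taken 0 h after release. Both samples carried the same tetracycline-regulated transgene and received synthetic RNAs by cell number. Each group is 1 library, so no difference could be checked against replicates or tested, and the values describe these libraries alone. MYC itself stood at 2358 RPKM in the high c-Myc library and 836 RPKM in the low c-Myc library, where RPKM is reads scaled to transcript length and library size, as given by the authors.

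Members were the symbols made of SLC and a number, outside SLC25A, whose best-expressed transcript had a mean of at least 1 RPKM over both libraries, without a set of 16 carriers of amino acids, glucose, lactate, folate and iron named by the rule. Of 322 such symbols, 132 reached the mean, 15 of the named set were among those and were left out, and 117 of the 10272 expressed genes remained. Another 190 symbols lay below the mean, 82 of them at 0 in both libraries. Just inside the limit were SLC23A3, SLC26A1 and SLC22A20, with means of 1.01, 1.03 and 1.03 RPKM. Just outside it were SLC6A16, SLC7A2 and SLC9A9, with means of 0.9996, 0.990 and 0.988 RPKM. Members were chosen by this mean RPKM over both libraries, and a gene low in one library had to be higher in the other to enter. That applied to 15 members under 1 RPKM in one library, of which 7 were low in the high c-Myc sample and 8 in the low c-Myc sample. The symbol rule also took in 5 proteins that are not carriers, namely SLC2A4RG, SLC4A1AP, SLC7A6OS, SLC9A3R1 and SLC9A3R2. SLC22A20, listed by RefSeq under the pseudogene symbol SLC22A20P, was kept among the carriers. SLC24A6, listed by RefSeq as SLC8B1, is a sodium-calcium exchanger known to act in the mitochondrial inner membrane, so the label of carriers outside mitochondria does not hold for that gene.

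Solute carriers are membrane proteins that move nutrients, ions, vitamins, nucleotides and metals across the plasma membrane and across the membranes of lysosomes, the Golgi apparatus and vesicles. Most work as exchangers or by coupling a substrate to the gradient of sodium, protons or another ion, without burning ATP themselves. Lymphocytes that leave rest take up more amino acids, sugars and nucleosides, and c-Myc is known to raise several of the carriers involved.

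The steps between low RPKM values implied about 105500000 reads with high c-Myc and 103000000 with low c-Myc. At 1 RPKM a transcript of 2 kb then rests on about 211 reads with high c-Myc and 206 with low c-Myc. The 7 B cell markers examined were expressed in both libraries, with a summed level of 6469 RPKM in the high c-Myc library and 15164 RPKM in the low c-Myc library. Of 5 T cell markers, 2 were at 1 RPKM or more in either library (summed level of the 5, 1.83 RPKM with high c-Myc and 11.2 RPKM with low c-Myc), and CD3D and CD8A were at 0 in both. Of 5 myeloid markers, 3 were at 1 RPKM or more in either library (summed level 35.6 RPKM with high c-Myc and 151 RPKM with low c-Myc). Of 6 epithelial and fibroblast markers, 3 were (13.0 and 19.2 RPKM with high and low c-Myc), with KRT18 and KRT19 at 0 in both libraries, and of 3 erythroid markers none was. The part of these transcripts in the solute carrier values was not tested.

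As a set, the solute carriers were close to the other expressed genes on the deposited scale. The log2 ratio of high over low c-Myc was taken on RPKM + 0.5, which understates differences of low genes, and a gene was called at a log2 ratio of 1 or more, or of -1 or less. Of 117 members, 31 (26.5%) were higher by at least 2-fold with high c-Myc, against 24.9% of all expressed genes. At least 2-fold lower were 7 members (5.98%), against 9.74% of expressed genes. The members' median log2 ratio was 0.33 (interquartile range over members -0.22 to 1.08), beside 0.22 for all expressed genes (-0.44 to 0.997). Without the 5 proteins that are not carriers, 29 of 112 were higher and 7 lower, around a median of 0.29. Among the 102 members at 1 RPKM or more in both libraries, 26 were higher and 3 lower, around a median of 0.34. Members summed to 1814 RPKM with high c-Myc and 1089 RPKM with low c-Myc, a ratio of 1.67. Of those sums, the 31 higher genes took 870 RPKM with high c-Myc and 249 RPKM with low c-Myc. All expressed genes summed to 298979 RPKM with high c-Myc and 228914 RPKM with low c-Myc, a ratio of 1.31. Summed levels of members and classes, here and below, stand beside that ratio and are not read as particular to carriers. Synthetic RNAs took 2.75% of the RPKM of transcripts and synthetic RNAs together with high c-Myc, and 17.5% with low c-Myc. In this bulk comparison fewer cells that express a gene and less RNA per cell cannot be told apart.

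**Figure D1:**
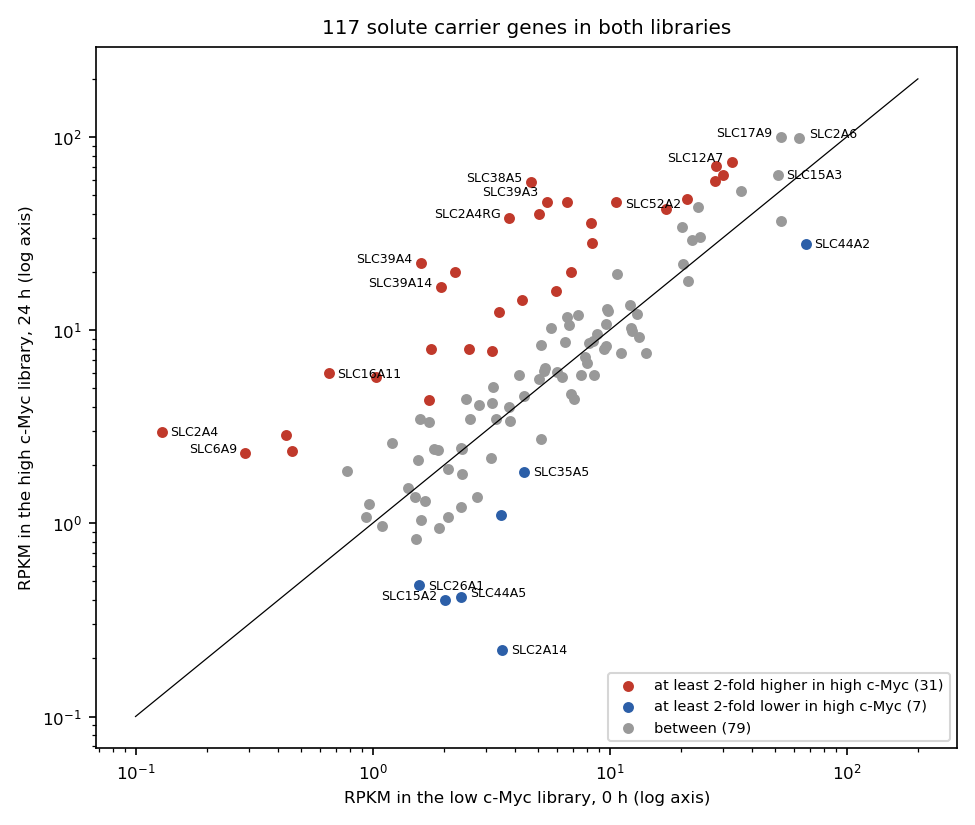
RPKM of each of the 117 members in the high c-Myc library (vertical, log axis) against the low c-Myc library (horizontal, log axis), with the line of equal values. Red points are the 31 members higher by at least 2-fold, blue points the 7 at least 2-fold lower and grey points the 79 between, by the ratio of RPKM + 0.5. SLC2A4, at low levels in both libraries, stood farthest above the line, and SLC2A14 farthest below it.

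The split between higher and lower calls moved with the scaling. With the ratios centred on the median of all expressed genes, 25 members were higher and 10 lower, against 19.8% and 14.8% of expressed genes. With the RPKM of all but the synthetic RNAs brought to equal sums, 24 were higher and 10 lower, against 18.2% and 16% of expressed genes. Quantile normalization gave 23 higher and 9 lower members, against 17.3% and 17.2% of expressed genes. The higher share of the members' calls was 81.6% as deposited and 71.4%, 70.6% and 71.9% under those 3 scalings. All 31 higher and all 7 lower members kept their sign under each of the 3. The lower calls all held, while the higher calls of SLC12A7, SLC35A2, SLC43A2, SLC35E3, SLC29A1 and SLC35A4 ended under all 3, that of SLC39A1 under equal RPKM sums and quantile normalization, and that of SLC38A10 under quantile normalization alone. With a pseudocount of 1 the calls of SLC35E3, SLC35A5 and SLC26A1 ended.

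None of the 10 most abundant members was among the 20 highest ratios, but abundant members were called higher more often than the whole set. Of 40 members at a mean of 10 RPKM or more, 18 were higher and 1 lower, around a median of 0.84. Of 24 at 20 RPKM or more, 13 were higher and 1 lower, around 1.07. The shares of all expressed genes at these levels were not taken, so the counts are not read as particular to the members. Across genes, Spearman's rho of the log2 ratio with the mean level was 0.33 over 112 members and 0.20 over 9948 expressed genes. SLC2A6, a member of the glucose transporter family found on internal membranes, had 98.7 RPKM in the high c-Myc library and 62.8 RPKM in the low c-Myc library, a log2 ratio of 0.65. SLC17A9, which loads ATP into vesicles, had 99.6 RPKM with high c-Myc and 52.7 RPKM with low c-Myc. Next in mean level were the lysosomal peptide and histidine carrier SLC15A3 (63.8 and 51.4 RPKM with high and low c-Myc) and the potassium-chloride cotransporter SLC12A7 (74.4 and 32.8 RPKM). SLC44A2, a choline transporter-like protein, was the most abundant member of the low c-Myc library at 67.2 RPKM and stood at 28.0 RPKM in the high c-Myc library.

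Amino acid and peptide carriers held the member with the highest ratio. SLC38A5, which carries glutamine, histidine, serine and glycine together with sodium, stood at 58.6 RPKM in the high c-Myc library, against 4.65 RPKM in the low c-Myc library. Its log2 ratio was 3.52 (95% counting interval 3.43 to 3.61). Intervals given here rest on approximate reads and cover counting error only. In this class of 13 genes, 5 were at least 2-fold higher and 1 lower. The summed level was 321 RPKM with high c-Myc and 155 RPKM with low c-Myc. Counts by class, family or pathway, here and below, stand beside 24.9% of all expressed genes higher and 9.74% lower. Such small counts are not read as particular to a class. SLC43A3, which the family number places here although it is known as a purine nucleobase transporter, had 46.2 RPKM with high c-Myc and 6.62 RPKM with low c-Myc (log2 ratio 2.71, interval 2.64 to 2.78). SLC6A9, a glycine transporter, was low in both, at 2.31 and 0.291 RPKM with high and low c-Myc (log2 ratio 1.83). SLC43A2, which moves branched-chain and other large neutral amino acids, had 47.9 RPKM with high c-Myc and 21.2 RPKM with low c-Myc (log2 ratio 1.16). SLC38A10, a less studied relative of SLC38A5, had 71.1 and 28.2 RPKM (log2 ratio 1.32).

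Other members of the class lay on both sides of 0. SLC38A9, the lysosomal arginine sensor of the mTORC1 pathway, had 1.36 RPKM with high c-Myc and 2.75 RPKM with low c-Myc, a log2 ratio of -0.80. SLC7A7, which exchanges cationic for neutral amino acids, had 7.62 RPKM with high c-Myc and 14.3 RPKM with low c-Myc (log2 ratio -0.86). SLC15A2, a carrier of small peptides, was the lower gene of the class, at 0.400 RPKM with high c-Myc and 2.03 RPKM with low c-Myc (log2 ratio -1.49). The lysosomal carriers SLC15A4, SLC36A1 and SLC38A7 had log2 ratios of -0.63, 0.36 and 0.46, and the taurine transporter SLC6A6 one of -0.22. Of 9 expressed genes of lysosomal amino acid sensing, among them the Rag GTPases and LAMTOR proteins, none was 2-fold higher and RRAGB was lower, at -1.37, around a median of -0.025.

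The zinc class holds import and export genes. The SLC39 proteins bring zinc into the cytosol. Most SLC30 proteins take it out of the cytosol into vesicles, the Golgi apparatus or the medium. Of 11 SLC39 members, 4 were at least 2-fold higher and none lower, against 24.9% and 9.74% of all expressed genes. Their summed level was 206 RPKM with high c-Myc and 92.7 RPKM with low c-Myc. Of 5 SLC30 members none was called in either direction, and the summed level was 19.1 RPKM with high c-Myc and 21.1 RPKM with low c-Myc. The median log2 ratio was 0.66 in SLC39 and -0.23 in SLC30. Median transcript GC content also differed, at 54.9% in SLC39 and 38.0% in SLC30, and after the correction for GC content described further on the medians were 0.29 and 0.24, with the same 4 SLC39 genes still higher. The difference between these families was not tested, since members of a family are not replicates.

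SLC39A4, a zinc importer known from the gut, had 22.3 RPKM in the high c-Myc library and 1.60 RPKM in the low c-Myc library, a log2 ratio of 3.44 (interval 3.32 to 3.56). SLC39A3, another plasma membrane importer, had 46.2 RPKM with high c-Myc and 5.43 RPKM with low c-Myc (log2 ratio 2.98). SLC39A14, which carries iron as well as zinc, had 16.7 RPKM with high c-Myc and 1.94 RPKM with low c-Myc (log2 ratio 2.82). The widely expressed importer SLC39A1 had 42.2 RPKM with high c-Myc and 17.4 RPKM with low c-Myc (log2 ratio 1.25). These 4 did not share their direction with every importer. SLC39A10 had 2.74 RPKM with high c-Myc and 5.15 RPKM with low c-Myc (log2 ratio -0.80), and SLC39A9 had a log2 ratio of -0.52. SLC39A7, which releases zinc from the endoplasmic reticulum, had 29.3 RPKM with high c-Myc and 22.2 RPKM with low c-Myc, and SLC39A8 had 8.76 and 8.52 RPKM.

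The zinc exporter of the plasma membrane, SLC30A1, had 5.59 RPKM with high c-Myc and 5.02 RPKM with low c-Myc, while SLC30A5, SLC30A6, SLC30A7 and SLC30A9 had log2 ratios of 0.052, -0.45, -0.45 and -0.23. Among 5 expressed genes of zinc sensing and buffering, none was 2-fold higher and 2 were lower, MT1X (log2 ratio -1.49) and MT1F (-2.46). MT2A, a metallothionein that binds zinc, had 88.3 RPKM with high c-Myc and 161 RPKM with low c-Myc. Its log2 ratio of -0.86 was not called. MT1X had 7.33 RPKM with high c-Myc and 21.5 RPKM with low c-Myc. MT1F was listed at 0 with high c-Myc and at 2.25 RPKM with low c-Myc, and MTF1, the zinc-responsive transcription factor, had 3.45 and 3.03 RPKM. Metallothionein genes are near-identical copies that can share reads, so their single values are uncertain.

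**Figure D2:**
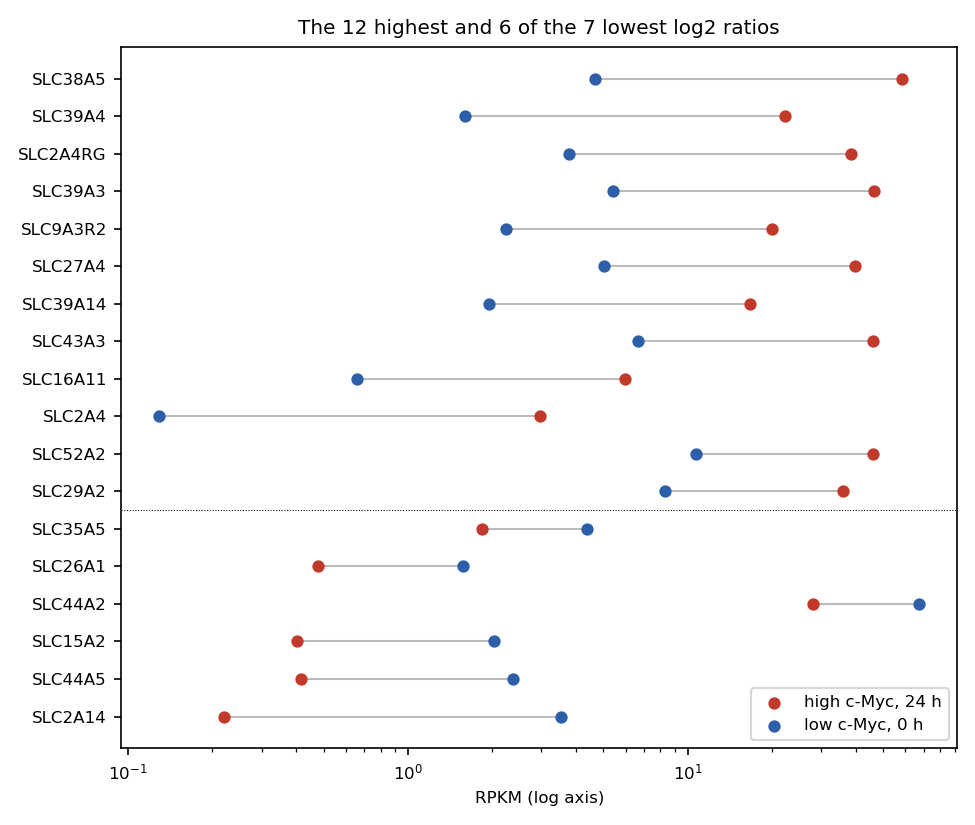
RPKM (log axis) in the high c-Myc library at 24 h (red) and the low c-Myc library at 0 h (blue) of the 12 members with the highest log2 ratios and, under the dotted line, 6 of the 7 at least 2-fold lower. SLC2A4 and SLC16A11 started below 1 RPKM in the low c-Myc library, and 4 of the 6 lower genes shown lay below 1 RPKM in the high c-Myc library.

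Nucleoside carriers had the highest class median, at 1.47 over 4 members on the deposited scale. After GC correction it was 0.55 over the 3 with a GC value, below phosphate (0.78) and vitamin carriers (0.64). SLC29A2, an equilibrative nucleoside transporter, had 35.9 RPKM in the high c-Myc library and 8.32 RPKM in the low c-Myc library, a log2 ratio of 2.05 (interval 1.98 to 2.11). SLC29A1, its more abundant relative, had 59.2 RPKM with high c-Myc and 27.9 RPKM with low c-Myc (log2 ratio 1.08). SLC29A4, which is known for monoamines, had 2.88 and 0.430 RPKM (log2 ratio 1.86). The lysosomal member SLC29A3 had 3.39 RPKM with high c-Myc and 3.81 RPKM with low c-Myc. Of 11 expressed enzymes of nucleoside and base salvage, which act on the imported substrates, 7 were at least 2-fold higher and none lower. UCK2, a uridine-cytidine kinase, had 17.7 RPKM with high c-Myc and 3.36 RPKM with low c-Myc, and APRT, which salvages adenine, had 326 and 78.6 RPKM.

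Vitamin carriers were higher for several vitamins. SLC52A2, a riboflavin transporter, had 46.1 RPKM with high c-Myc and 10.7 RPKM with low c-Myc, a log2 ratio of 2.06 (interval 1.99 to 2.13). SLC5A6, which brings in biotin and pantothenate with sodium and is placed with the sugar carriers by family number, had 28.4 and 8.44 RPKM (log2 ratio 1.69). SLC46A1, the proton-coupled folate transporter, was low in both libraries, at 2.38 RPKM with high c-Myc and 0.458 RPKM with low c-Myc (log2 ratio 1.59). The ascorbate carriers SLC23A1 and SLC23A2 lay on opposite sides of 0, with log2 ratios of -0.34 and 0.59.

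Of 11 members in the sugar class, 3 were at least 2-fold higher and 1 lower. One of the 3 is SLC5A6, the biotin and pantothenate carrier given above, so that the sugar carriers called higher were SLC2A8 and SLC2A4. SLC2A8, an intracellular glucose transporter, had 12.4 RPKM with high c-Myc and 3.42 RPKM with low c-Myc (log2 ratio 1.71). SLC2A4, the insulin-responsive glucose transporter of muscle and fat, had 2.98 RPKM with high c-Myc and 0.129 RPKM with low c-Myc (log2 ratio 2.47). SLC2A14, a near-identical copy of SLC2A3 with which it can share reads, had the lowest log2 ratio of all members, -2.48, at 0.221 RPKM with high c-Myc and 3.53 RPKM with low c-Myc. The fructose transporter SLC2A5 had 13.5 and 12.2 RPKM, the inositol transporter SLC5A3 had 1.80 and 2.38 RPKM, and SLC50A1 had 12.2 and 13.1 RPKM with high and low c-Myc. SLC2A4RG, a DNA-binding protein named for its action on the SLC2A4 promoter, had 38.3 RPKM with high c-Myc and 3.78 RPKM with low c-Myc (log2 ratio 3.18).

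Among the monocarboxylate carriers and other organic acid carriers, SLC16A11 was the higher gene of 4, with 5.97 RPKM with high c-Myc and 0.657 RPKM with low c-Myc (log2 ratio 2.48). SLC16A6 and SLC16A13 had log2 ratios of -0.098 and -0.13. The proteins that escort monocarboxylate carriers to the surface went opposite ways. BSG (basigin) had 269 RPKM with high c-Myc and 75.3 RPKM with low c-Myc, and EMB (embigin) had 16.2 and 46.2 RPKM.

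Lipid-related carriers held members at both ends. SLC27A4, a fatty acid transport protein with acyl-CoA synthetase activity, had 39.8 RPKM in the high c-Myc library and 5.03 RPKM in the low c-Myc library, a log2 ratio of 2.86 (interval 2.79 to 2.93). SLC27A5, known as the bile acid CoA ligase of the liver, had 5.75 and 1.03 RPKM (log2 ratio 2.03). SLC27A1 and SLC27A3 had log2 ratios of 0.34 and 0.066. In contrast, the 3 choline transporter-like members were all below 0, and 2 of them at least 2-fold lower. SLC44A2 had a log2 ratio of -1.25 (interval -1.28 to -1.21), SLC44A5 one of -1.65 with 0.417 RPKM with high c-Myc and 2.37 RPKM with low c-Myc, and the choline transporter SLC44A1 one of -0.52. Of 5 expressed genes that turn choline into phosphatidylcholine, none was 2-fold higher and CEPT1 was lower, at -1.20. CHKA, a choline kinase, had 16.4 RPKM with high c-Myc and 8.91 RPKM with low c-Myc (log2 ratio 0.84). SLC33A1, which moves acetyl-CoA into the endoplasmic reticulum, had 10.7 and 6.77 RPKM.

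The SLC35 family holds carriers that supply the Golgi apparatus and the endoplasmic reticulum with nucleotide sugars and sulfate donors, and also other SLC35 genes. All of these together were 18 members with 5 higher, 1 lower and a median of 0.10. SLC35C1, the GDP-fucose transporter, had 15.95 RPKM with high c-Myc and 5.92 RPKM with low c-Myc (log2 ratio 1.36). SLC35A2, the UDP-galactose transporter, had 7.78 and 3.20 RPKM (log2 ratio 1.16). The CMP-sialic acid transporter SLC35A1 and the UDP-N-acetylglucosamine transporter SLC35A3 had log2 ratios of -0.74 and -0.71, and SLC35A5 was the lower gene at -1.06. SLC35B2, which imports the sulfate donor PAPS, had 22.0 RPKM with high c-Myc and 20.4 RPKM with low c-Myc. SLC35F2 had the highest ratio of the family at 1.63, and SLC35A4 the highest level, at 63.5 and 30.2 RPKM with high and low c-Myc. Of 19 expressed enzymes that make nucleotide sugars and PAPS, 9 were at least 2-fold higher and none lower. GMDS, which starts GDP-fucose synthesis, had 7.84 RPKM with high c-Myc and 1.38 RPKM with low c-Myc, and TSTA3, which finishes it, had 86.0 and 21.5 RPKM.

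Ion exchangers and cotransporters had the lowest class median among the classes of 3 or more, 0.080 over 17 members, with 2 higher and 2 lower. That rank held on the deposited scale only. After GC correction the median was -0.21, above the -0.28 of organic cation, vesicular and other carriers. SLC12A7 had a log2 ratio of 1.17 (interval 1.14 to 1.19). The sodium-potassium-chloride cotransporter SLC12A2, which brings chloride in where SLC12A7 lets it out, had 3.47 RPKM with high c-Myc and 1.59 RPKM with low c-Myc (log2 ratio 0.92). SLC9B2, a sodium-proton exchanger, had 8.01 RPKM with high c-Myc and 1.76 RPKM with low c-Myc (log2 ratio 1.91). The endosome and Golgi members SLC9A7 and SLC9A8 had log2 ratios of -0.50 and -0.11. SLC4A2, a chloride-bicarbonate exchanger, had 43.3 RPKM with high c-Myc and 23.7 RPKM with low c-Myc (log2 ratio 0.86). SLC4A5, a sodium-bicarbonate cotransporter, had 0.941 and 1.92 RPKM, and SLC12A9 had 52.7 and 35.9 RPKM with high and low c-Myc. SLC26A1, a sulfate carrier, was a lower gene at -1.09, with 0.477 RPKM with high c-Myc and 1.58 RPKM with low c-Myc. Of 4 expressed WNK pathway kinases, which control SLC12 cotransporters, WNK2 was higher (log2 ratio 2.80) and none lower. SLC9A3R2, a scaffold protein of sodium-proton exchangers and not a carrier, had 20.03 RPKM with high c-Myc and 2.24 RPKM with low c-Myc (log2 ratio 2.91). Of 4 expressed subunits of the sodium pump, which builds the gradient that many carriers use, 3 were higher, among them ATP1B3 with 21.6 RPKM with high c-Myc and 5.81 RPKM with low c-Myc.

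Phosphate carriers had 2 higher genes of 5. SLC20A1, the main importer of inorganic phosphate, had 19.99 RPKM with high c-Myc and 6.90 RPKM with low c-Myc (log2 ratio 1.47), and SLC37A4, the glucose-6-phosphate transporter of the endoplasmic reticulum, had 8.01 and 2.55 RPKM (log2 ratio 1.48). SLC20A2, a relative of SLC20A1, had 1.86 and 0.782 RPKM, and SLC37A3 had 1.26 and 0.968 RPKM with high and low c-Myc. SLC37A1 lay the other way, at 36.6 RPKM with high c-Myc and 53.2 RPKM with low c-Myc (log2 ratio -0.53). The copper importer SLC31A1 and the magnesium carriers SLC41A1 and SLC41A3 had log2 ratios of 0.34, 0.28 and 0.063. In the remaining class of 6 none was called, with the carnitine transporter SLC22A5 at 2.47 RPKM with high c-Myc and 2.36 RPKM with low c-Myc. SLC22A31 had 8.36 RPKM with high c-Myc and 5.13 RPKM with low c-Myc, and SLC22A15 had 0.826 and 1.53 RPKM. The heme carrier SLC48A1 had 4.12 and 2.81 RPKM with high and low c-Myc.

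**Figure D3:**
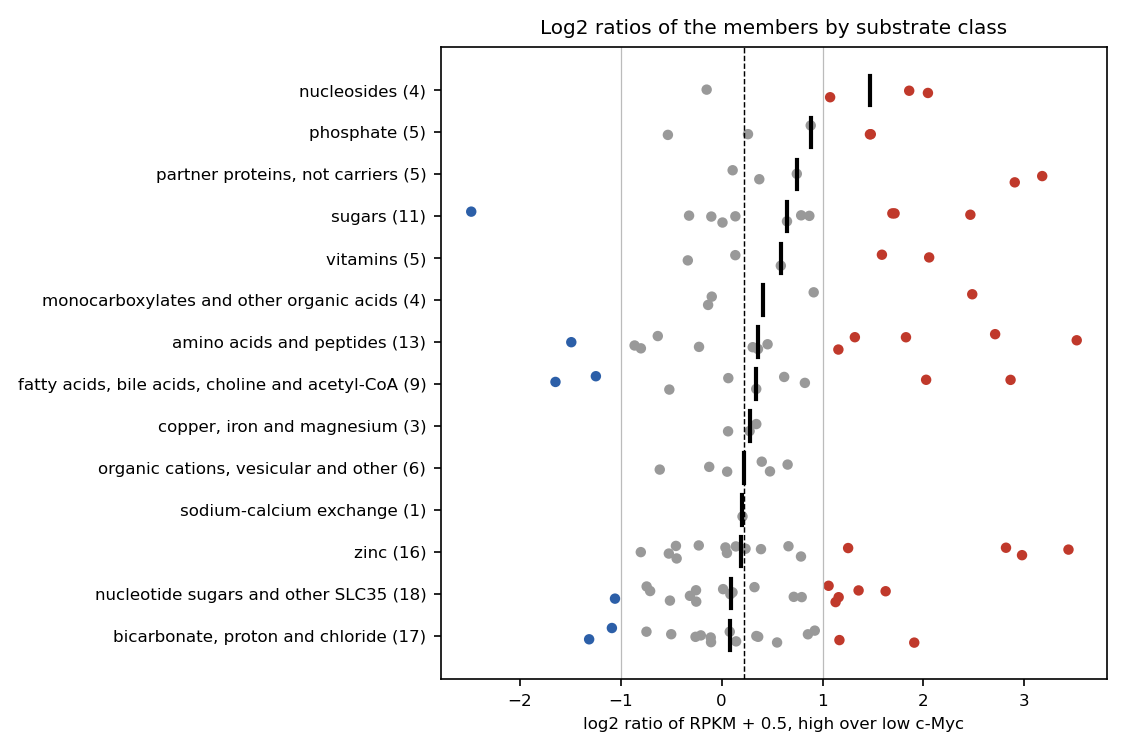
Log2 ratio of RPKM + 0.5, high over low c-Myc, for each member, by substrate class with the number of members in brackets. Black bars are class medians, the dashed line is the median of all expressed genes at 0.22, grey lines mark -1 and 1, and colours are as in the plot of levels. Nucleoside carriers had the highest median on this deposited scale, which did not hold after GC correction, and most classes held members on both sides of 0.

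Other transport genes of these cells are given for comparison, beside 24.9% of all expressed genes at least 2-fold higher and 9.74% lower. Of the 15 expressed carriers that the rule left out, 8 were at least 2-fold higher and 2 lower, around a median of 1.53. Of 37 expressed SLC25A carriers of the mitochondrial inner membrane, 12 were higher and none lower, around 0.65. Of 20 expressed ABC transporters, which burn ATP, 6 were higher and 1 was lower, around 0.50. SLCO4A1, the 1 expressed organic anion carrier of the SLCO family, had 24.5 RPKM with high c-Myc and 2.53 RPKM with low c-Myc.

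The promoters of members were searched for CACGTG, the E-box that c-Myc and its partner MAX bind. This word is its own reverse complement, so one search covers both strands. The window was the 250 bases before the gene start in RefSeq on GRCh38.p14, a different build from the hg18 named for the deposited values. Of 95 members with a promoter sequence, 9 held the word (9.47%), against 9.42% of 8522 expressed genes and 6.49% of all 27305 promoters. It stood in 7 of 25 members that were at least 2-fold higher, 2 of 64 between and 0 of 6 lower. The share in all expressed genes was not split by call, so this split is not read as particular to the members. The count among higher members depended on the scaling, a comparison chosen after seeing the data. The word stood in 3 of 19 members higher after centring, 3 of 18 with equal RPKM sums, 3 of 17 after quantile normalization and 3 of 17 after GC correction, and SLC38A5 and SLC20A1 were the 2 with the word among 13 higher under all of these. A match is a description of the sequence and not a bound site. The sequences of the 4 highest ratios among those 7 are shown, 5′ to 3′ on the gene's strand, with the E-box in capitals, because they include the member with the highest ratio and 3 carriers of other classes. They are SLC38A5 (chrX:48470261-48470510, minus strand), SLC16A11 (chr17:7044093-7044342, minus strand), SLC20A1 (chr2:112645689-112645938, plus strand) and SLC12A7 (chr5:1112064-1112313, minus strand). The word starts at -206, -69, -206 and -53 from the gene start in these 4.
SLC38A5: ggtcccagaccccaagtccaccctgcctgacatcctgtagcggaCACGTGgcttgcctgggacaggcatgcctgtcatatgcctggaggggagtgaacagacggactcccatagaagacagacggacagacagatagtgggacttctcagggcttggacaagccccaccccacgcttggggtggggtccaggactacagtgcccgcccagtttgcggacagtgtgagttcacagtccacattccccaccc
SLC16A11: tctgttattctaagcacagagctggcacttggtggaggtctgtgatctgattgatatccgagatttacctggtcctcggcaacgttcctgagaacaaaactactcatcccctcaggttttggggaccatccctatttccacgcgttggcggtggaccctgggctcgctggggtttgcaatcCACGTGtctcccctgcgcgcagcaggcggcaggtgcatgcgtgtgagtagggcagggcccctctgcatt
SLC20A1: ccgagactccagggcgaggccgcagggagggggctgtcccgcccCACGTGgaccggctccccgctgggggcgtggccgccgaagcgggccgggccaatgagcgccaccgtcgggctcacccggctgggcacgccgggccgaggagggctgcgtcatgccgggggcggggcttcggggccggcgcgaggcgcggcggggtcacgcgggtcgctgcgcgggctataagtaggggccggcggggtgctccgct
SLC12A7: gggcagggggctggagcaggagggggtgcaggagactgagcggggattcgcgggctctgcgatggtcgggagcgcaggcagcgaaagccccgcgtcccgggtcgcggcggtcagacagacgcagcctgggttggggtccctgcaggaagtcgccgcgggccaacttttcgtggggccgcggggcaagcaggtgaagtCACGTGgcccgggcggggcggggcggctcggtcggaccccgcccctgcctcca

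Transcript GC content moved with the ratios. Over 112 members with a GC value, the rank correlation (Spearman's rho) of GC content with the log2 ratio was 0.54, beside 0.41 over 9948 expressed genes, as a description across genes that share both libraries. Median GC content was 59.6% in the higher members, 48.5% in the lower ones and 51.0% in those between. After subtraction of the trend over all expressed genes, 23 of 112 members were higher and 6 lower, against 21.4% and 9.13% of expressed genes. SLC38A5, SLC43A3 and SLC39A14 changed little, to 3.25, 2.68 and 2.69. SLC39A4, SLC39A3 and SLC2A4RG had corrected values of 2.03, 1.73 and 1.54. The calls of SLC16A11 (0.77), SLC29A4 (0.55), SLC2A8 (0.91), SLC38A10 (0.26), SLC12A7 (0.59), SLC35A2 (0.62), SLC43A2 (0.83) and SLC35A4 (0.80) ended. SLC26A1 had a corrected value of -2.53, and SLC12A2 and SLC4A7 came to lie above 1, at 1.22 and 1.03. The higher calls of 19 members and the lower calls of 6 held under all 3 scalings and this correction. SLC29A1, SLC35C1 and SLC35A5, among the called members, had no GC value. The part of GC content in the differences was not tested.

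**Figure D4:**
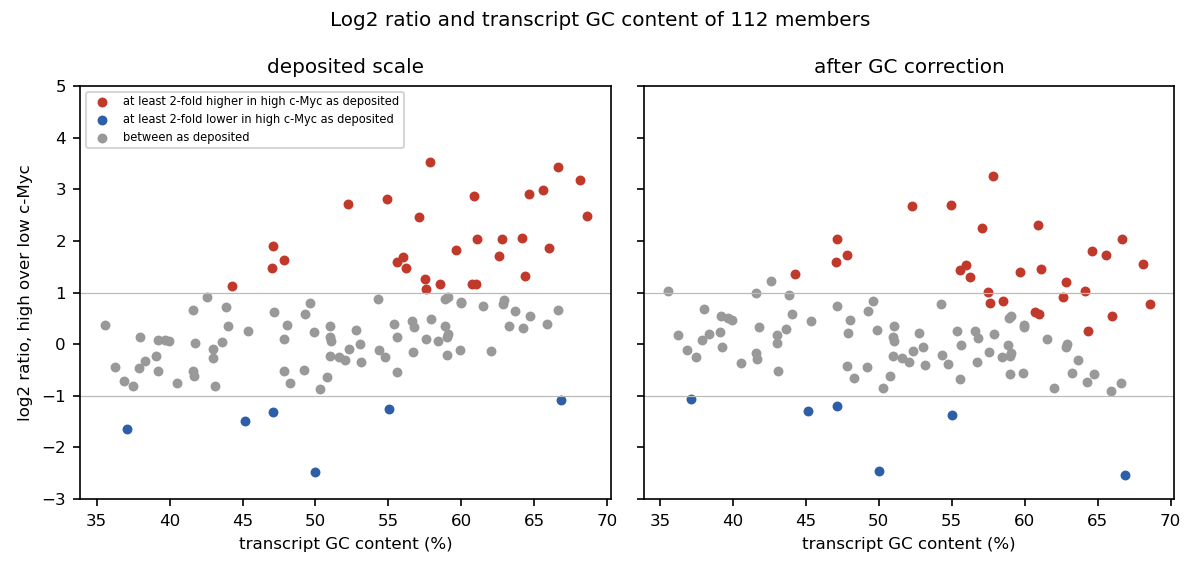
Log2 ratio, high over low c-Myc, against transcript GC content (%) of 112 members, on the deposited scale (left) and after the GC correction (right). Colours give the call on the deposited scale and grey lines mark -1 and 1. On the left most red points lie at a GC content above 55%, and on the right 8 of the red points lie below 1.

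Other transcripts of the same gene gave mostly the same ratio. Of the members, 54 had several transcripts at a mean of 1 RPKM or more, and their log2 ratios spread over a median of 0.032, since overlapping transcripts share most reads. For SLC39A3 the spread was 1.64, with 2.98 for NM_144564 (46.2 and 5.43 RPKM with high and low c-Myc) and 1.34 for NM_213568 (12.1 and 4.47 RPKM). For SLC30A5 it also passed 1, and the shorter transcript NM_024055 had a log2 ratio of 1.06 against 0.052 for NM_022902. The 2 transcripts of SLC39A7 were not compared. This comparison took the first row listed for each transcript, and for SLC39A7 those rows lay under 1 RPKM. The level given above came from the row with the highest mean, so the low rows are not a transcript level of this gene. The libraries keep strand, but the sources used here do not say whether counting used it. In all, 45 members share exon sequence with another gene in GENCODE release 29, 34 of them on the opposite strand and 17 on the same strand. Called members with an opposite-strand overlap include SLC26A1, which overlaps IDUA, SLC6A9 (CCDC24), SLC5A6 (ATRAID), SLC37A4 (TRAPPC4), SLC35A4 (APBB3), SLC46A1 (SARM1) and SLC2A4 (YBX2). Called members with a same-strand overlap include SLC2A4RG, SLC39A3, SLC43A3 and SLC39A1, where strand would not separate the reads. Reads of such pairs cannot be told apart here.

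The per-cell comparison took the synthetic RNAs as the common measure. The 46 synthetic RNAs at 1 RPKM or more in both libraries had a median log2 ratio of -2.56 (interquartile range -2.84 to -2.17), and subtracting it shifted every gene by the same amount. Per cell 115 of 117 members (98.3%) were higher by at least 2-fold with high c-Myc, against 97.1% of expressed genes, and 0 were at least 2-fold lower, against 0.0876%. The members' median per-cell log2 ratio was 2.88, beside 2.78 for all expressed genes. SLC38A5 stood at 6.08, SLC39A4 at 6.00 and SLC39A3 at 5.53, and SLC44A2, among the lower genes, stood at 1.31. Members that did not reach 1 were SLC44A5 at 0.91 and SLC2A14 at 0.073. The pseudocount, added before the shift, draws such low genes upward on this scale. Without it 112 members were higher by at least 2-fold and 1 was lower, and the per-cell log2 ratios were 0.047 for SLC44A5, 0.21 for SLC15A2 and -1.44 for SLC2A14.

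**Figure D5:**
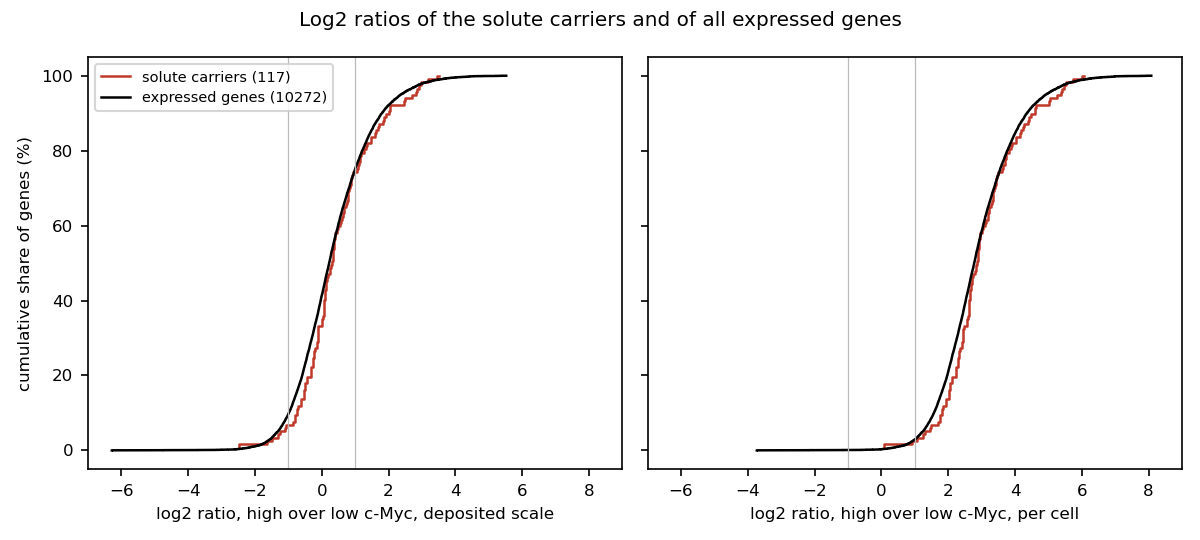
Cumulative share of genes (%) against the log2 ratio, high over low c-Myc, for the 117 solute carriers (red) and all 10272 expressed genes (black), on the deposited scale (left) and per cell (right). The red and black curves run close together on both scales, with the members' median 0.33 and 2.88 beside 0.22 and 2.78.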

How the data were processed

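Poly(A)-selected, dUTP-stranded libraries of 1 high and 1 low c-Myc sample were analysed. The authors deposited RPKM values per RefSeq transcript, per the file headers, and a signal column in which RPKM were renormalized with the synthetic RNAs; the sources used here do not say how. Bowtie and hg18 are named, with no version of Bowtie, per the submitters' processing notes. The sources used here do not name the counting tool, its use of strand or the reads behind the RPKM scaling. Each symbol was represented by its transcript with the highest mean RPKM. A pseudocount of 0.5 was used, genes were called by size at 2-fold, and no p-value was computed. Approximate reads came from the steps of RPKM times GENCODE release 29 transcript length (46.2% and 49.2% of low values within 0.05 of a whole number for high and low c-Myc, against 10% by chance), and intervals are exact binomial at 95%. GC trends used lowess with a fraction of 0.3. Of 117 members, all but SLC35E2 matched a RefSeq gene of the same or a later symbol. The members, lists and classes were chosen with earlier results of these data known. Named were the 10 highest and 10 lowest ratios, the 10 most abundant members, the 2 highest and 2 lowest of each class by family number, genes under 1 RPKM in one library and the 3 genes on either side of the RPKM limit. Other members were named for their role, after their values were seen. Some members that enter the counts are not reported here by name. Alternatives covered the pseudocount, filter, transcript choice, scaling, GC content and synthetic RNAs. The procedure was tested on simulated data with counting error but no spread between cultures, so that test does not bear on differences between replicates. Computation used statsmodels 0.14.6, pandas 2.3.3, scipy 1.17.1, numpy 2.4.6 and matplotlib 3.10.9 under Python 3.11.15.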

Additional observations from a re-analysis of the deposited data

How the results depend on the processing

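The count of members higher by at least 2-fold as deposited, 31, lay between 23 and 35 under the pseudocounts of 0.1 and 1, the other filters, the sum over transcripts, the scalings, the GC correction and, chosen after seeing the data, without the 5 proteins that are not carriers. The count of lower members, 7, lay between 5 and 10 except with a mean of at least 5 RPKM, where 69 members remained and 1 was lower. Per cell, 69 of those 69 and, with no filter, 222 of 224 members were higher. The authors' renormalized column gave 105 higher and 1 lower of 117. The log2 ratio of SLC15A2 computed from that column, with 0.5 added to each value, was -0.03025. Its per-cell log2 ratio was 1.07 with the pseudocount of 0.5 and 0.21 without it. The cause of these last differences was not tested. The median log2 ratio, 0.33 as reported, was 0.298 and 0.348 with pseudocounts of 1 and 0.1, 0.455 with a mean of at least 5 RPKM, 0.043 with no filter, 0.314 for summed transcripts, 0.104 centred, 0.039 with equal RPKM sums, 0.00065 with quantile normalization, 0.217 with the GC correction and 0.292 without the proteins that are not carriers. Among the 62 genes of the naming rule no deposited log2 ratio past 2-fold changed sign. With 1 library per group, no replicate could be left out. No paired analysis was possible because each group has 1 library and no test was made. Counting error is small at this depth, and the spread between cultures is unknown.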
